A study of Mus musculus with 6 samples.

Results

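Distal Eomes regions of mouse natural killer (NK) cells that lay close together were joined into clusters, and 459 clusters of 3 or more regions were found. Regions were intervals of the 3 deposited peak lists merged where they shared 1 bp or more, on chromosomes 1 to 19 and X, and a region was called reproducible with a peak in 2 or 3 lists. A reproducible region was called distal by the deposited distance of its strongest row, the one with the largest pileup, to a transcription start. That distance had to exceed 3000 bp. Distal neighbours with gaps of 12500 bp or less were joined. The clusters held 1797 of 8166 distal regions (22.0%), out of 20056 reproducible and 84297 merged regions. A further 1764 regions formed 882 pairs, and 4605 distal regions stood alone. Pileup, list membership, position and gene label were what chose the clusters, so their number, span and enrichment are given as descriptions with no test.

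The material was spleen NK cells of 8- to 12-week-old C57BL/6 mice, wild type, purified from pooled splenocytes and cultured for 4 days in IL-15 at 100 ng/mL. All libraries shared this strain, genotype and culture, so IL-15-expanded cells stand in for NK cells here. Chromatin was precipitated with an anti-Eomes antibody in 3 separate experiments, each giving 1 immunoprecipitated (IP) library, set against 1 input library of DNA that was not precipitated. No expression data were analysed here, so the labelled cell type was not checked against marker transcripts.

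Eomes is a T-box transcription factor that NK cells need to mature and to keep their identity, and it shares DNA-binding specificity with its relative T-bet. Transcription factors bind both at promoters and at distal elements, and genes that define a cell type often carry runs of such elements. Joining neighbouring elements is a usual way to find these runs, but nearness to a gene does not show that the gene is controlled from them.

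Sequence was at hand only where a region met a RefSeq promoter window (GRCm38.p6, the assembly behind mm10), which runs from 250 bp before to 50 bp after an annotated start. Of the 1797 cluster regions, 39 met such a window, mostly one of a predicted transcript. These 39 were distal by the deposited distance, yet they lay at a RefSeq start. Among them were regions at Csrnp1 and Mknk2 that met windows of those same genes, with deposited distances of -5121 and -4289 bp (minus for upstream). The windows printed first belong to the strongest region of the Irf8 cluster (chr8:120786737-120787036, plus strand) and to a region of the Eomes cluster (chr9:118489730-118489880, minus strand), because both hold a T-box motif, TCACACC or its reverse complement GGTGTGA, which is in capitals. Windows at Klrb1c (chr6:128798459-128798553, plus strand) and Cd247 (chr1:165849077-165849258, minus strand) are shown as genes of the fixed lists without that site. The last pair, assigned to ENSMUSG00000086605 (chr2:167129178-167129477, plus strand) and Gm9869 (chr9:61013180-61013479, plus strand), was added after its sites were seen.
Irf8: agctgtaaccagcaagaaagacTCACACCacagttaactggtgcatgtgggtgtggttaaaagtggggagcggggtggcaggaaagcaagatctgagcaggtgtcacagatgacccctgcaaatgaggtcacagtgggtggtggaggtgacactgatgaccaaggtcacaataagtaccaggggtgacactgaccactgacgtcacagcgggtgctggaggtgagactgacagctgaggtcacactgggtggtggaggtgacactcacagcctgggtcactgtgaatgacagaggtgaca
Eomes: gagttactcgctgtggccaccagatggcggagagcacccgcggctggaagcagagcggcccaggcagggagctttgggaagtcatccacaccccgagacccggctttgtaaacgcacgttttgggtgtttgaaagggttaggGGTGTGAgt
Klrb1c: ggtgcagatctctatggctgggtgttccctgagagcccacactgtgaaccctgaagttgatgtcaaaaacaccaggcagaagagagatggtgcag
Cd247: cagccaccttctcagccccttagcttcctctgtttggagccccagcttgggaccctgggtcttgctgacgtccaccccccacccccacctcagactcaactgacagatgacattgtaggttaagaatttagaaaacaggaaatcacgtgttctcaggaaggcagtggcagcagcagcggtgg
ENSMUSG00000086605: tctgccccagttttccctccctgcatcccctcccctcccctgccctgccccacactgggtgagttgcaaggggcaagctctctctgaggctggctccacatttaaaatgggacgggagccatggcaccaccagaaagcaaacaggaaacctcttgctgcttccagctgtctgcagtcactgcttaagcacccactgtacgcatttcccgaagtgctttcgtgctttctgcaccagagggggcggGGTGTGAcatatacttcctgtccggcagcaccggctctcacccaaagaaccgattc
Gm9869: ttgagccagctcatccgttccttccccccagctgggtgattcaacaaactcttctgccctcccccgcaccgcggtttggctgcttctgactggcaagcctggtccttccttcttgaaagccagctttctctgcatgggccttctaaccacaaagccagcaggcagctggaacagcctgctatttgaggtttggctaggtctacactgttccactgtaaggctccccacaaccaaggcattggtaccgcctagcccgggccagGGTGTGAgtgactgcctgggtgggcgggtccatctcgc

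Counting 1 window per region and only regions with at least 150 bp in it, the T-box motif stood in 5 of 31 cluster windows (16.1%, 95% Wilson interval 7.09 to 32.6%). It stood in 1 of 17 pair windows (5.88%), in 10 of 84 windows of single distal regions (11.9%, 6.60 to 20.5%) and in 3.98% of all 32851 windows of 300 bp. The intervals of clusters and single regions overlapped. Overlap is not a test of a difference, and none was made with this few windows. The Runx site TGTGGTT (reverse AACCACA) stood in 5 of 31 cluster windows, 8 of 84 single windows and 5.27% of all windows. The ETS site ACTTCCT (reverse AGGAAGT) stood in 5 of 31 cluster windows, 13 of 84 single windows and 9.35% of all windows. The AP-1 site TGAGTCA (reverse TGACTCA) stood in 6 of 31 cluster windows, 10 of 84 single windows and 5.20% of all windows. In 4 of the 5 cluster windows with a T-box motif it lay in the part of the window inside the region, and in the other, at Gm26005, it lay outside the region. Matches are descriptions of these letters, and windows at annotated starts are not a fair sample of distal regions.

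Most clusters were small. Of the 459, 253 held 3 regions, 117 held 4 and 42 held 5, while 47 held 6 or more and 8 held 10 or more. The median span was 11.3 kb (95% interval of the median 10.5 to 11.8 kb), the quartiles were 6.78 and 16.7 kb, and the extremes were 1.52 and 53.4 kb. Regions covered 13.2% of the 5899.7 kb that all clusters spanned, with a median of 3.14 regions per 10 kb. Median span was 9.07 kb for clusters of 3, 13.8 kb for 4 to 5, 22.4 kb for 6 to 9 and 43.1 kb for 10 or more. Among clusters of 3, the widest gaps that were joined measured 12299, 12315 and 12406 bp, and the narrowest that kept 3 regions apart, at Gm26614, Spata13 and Sorcs2, lay between 12520 and 12574 bp. Regions just over the distance limit lay 3002, 3002 and 3010 bp from a start, and those just under it at -2997, -2997 and -2998 bp, where the minus sign means upstream. Rebuilt from regions in both of the other lists, there were 246 clusters with 921 regions without experiment 1, 276 with 1019 without experiment 2 and 161 with 596 without experiment 3.

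**Figure D1:**
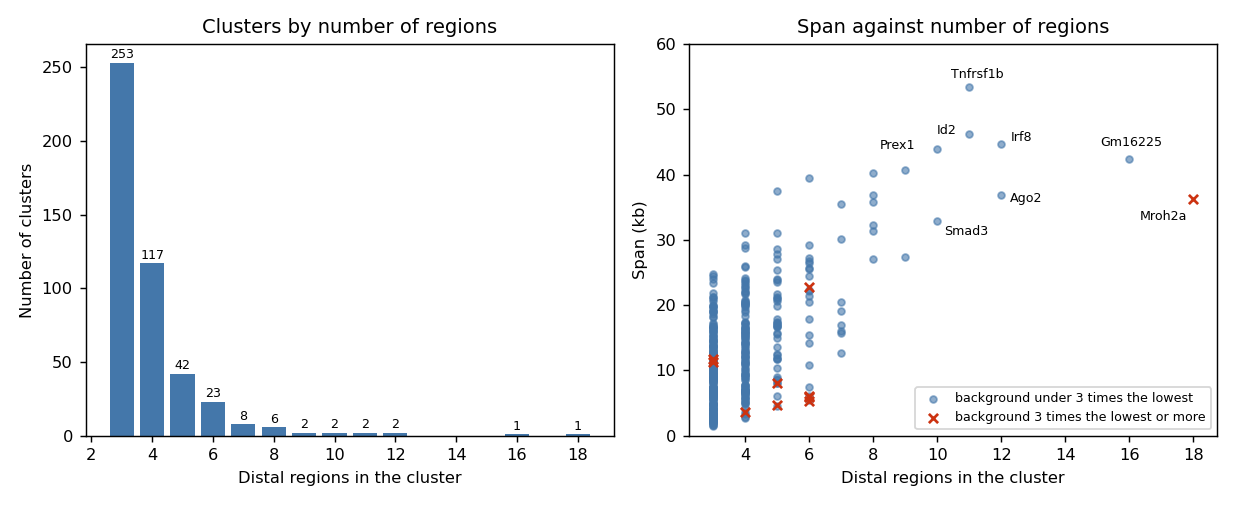
Left, number of clusters by number of distal regions in the cluster. Right, span in kb against number of regions, 1 point per cluster, with crosses for the 10 clusters whose background was 3 or more times the lowest of its list. Small clusters dominate, the longest (Tnfrsf1b) spans 53.4 kb, and the one with most regions (Mroh2a, 18) is among the crosses.

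The deposited lists give each peak a pileup, read here as IP fragments at its summit, and a fold enrichment of IP over background. Depth per library was not given in the sources used here. The lowest background that a list used, recovered from pileup and fold, came to 1.82, 1.32 and 2.33 fragments for experiments 1, 2 and 3. Smallest pileups were 8, 7 and 9, so weaker binding was not detectable. The lists held 37456, 33841 and 46329 intervals, and a cluster region had a peak in 1450, 1389 and 1696 of 1797 cases in experiments 1, 2 and 3. The longest list gave 81.6% of the rows that set a region's gene and distance.

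Regions of clusters were somewhat wider than isolated ones and were more often in all 3 lists. The median width was 385 bp in clusters, 351 bp in pairs and 322 bp for single distal regions. In all 3 lists were 52.4% of cluster regions (95% Wilson interval 50.1 to 54.7%), 49.0% of pair regions (46.7 to 51.3%) and 41.0% of single regions (39.6 to 42.4%). Within clusters this share was 48.2% for those of 3 regions, 54.3% for 4 to 5, 57.3% for 6 to 9 and 58.0% for 10 or more. Introns held 47.0% of cluster regions, 46.9% of pair regions and 42.0% of single regions. The intron class came from the deposited annotation and need not mean an intron of the labelled gene. In experiment 1 the median fold was 4.81 in clusters and 4.63 for single regions. In experiment 2 it was 5.27 in clusters and 5.10 for single regions, and in experiment 3 it was 5.25 in clusters and 4.93 for single regions. Over experiments the medians averaged 5.11 ± 0.26 in clusters, 5.07 ± 0.20 in pairs and 4.89 ± 0.24 for single regions (SD, n = 3 experiments each). The difference between clusters and single regions within an experiment was 0.22 ± 0.08 (SD, n = 3) and had the same sign in 3 of 3. Larger clusters were not more enriched per region: in experiment 3 the median fold was 5.11 in clusters of 3, 5.57 in those of 4 to 5, 4.90 in those of 6 to 9 and 5.06 in those of 10 or more. The rule used these lists, so no test was made.

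**Figure D2:**
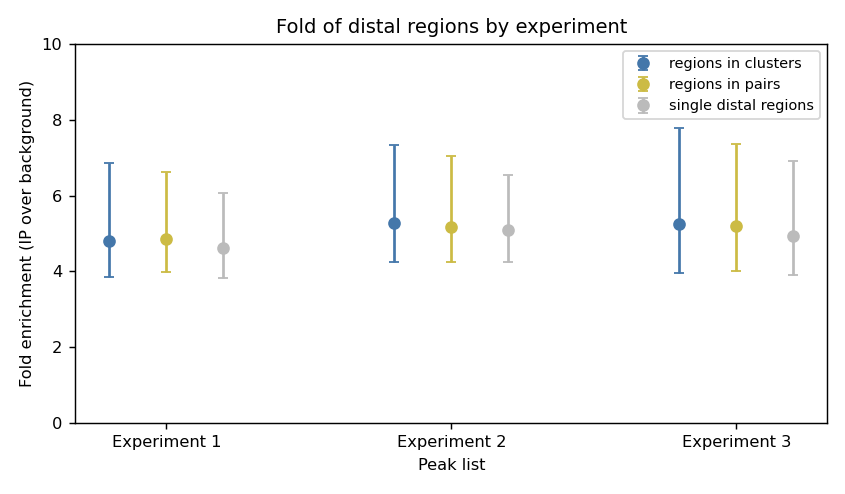
Fold enrichment (IP over background, linear axis from 0) of regions in clusters, of regions in pairs and of single distal regions in each peak list; points are medians and bars the lower to upper quartiles of the regions. Medians lie between 4.63 and 5.27 in all 3 experiments, and the bars overlap widely.

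Among the peak values, a list left out was the measure that did not take part in the choice. Clusters were rebuilt by the same rule from regions found in both of the other experiments, and each region was looked up in the list left out. With experiment 1 left out, 73.7% of 921 regions in clusters were met by one of its peaks (95% Wilson interval 70.8 to 76.5%), against 67.6% of 3286 single distal regions (66.0 to 69.2%). With experiment 2 left out the shares were 71.5% of 1019 cluster regions and 59.3% of 3594 single regions. With experiment 3 left out they were 91.6% of 596 cluster regions and 81.2% of 2899 single regions. Cluster regions were met more often in 3 of 3 comparisons, by 9.60 ± 3.14 percentage points (SD, n = 3). The two-sided exact permutation test over the 3 differences gave p = 0.25, the smallest that 3 pairs allow, and the 3 differences share lists. Against pairs the difference was 3.18 ± 2.82 points. Regions of clusters also scored higher and were wider in the lists that chose them, with median widths of 401, 398 and 361 bp in clusters against 343, 340.5 and 311 bp for single regions. Within 3 classes of that score from low to high, a split chosen after the data were seen, the differences were 12.8 ± 6.99, 4.57 ± 4.30 and 2.71 ± 1.71 points. Where a region was met, its median fold in the list left out was 6.30 ± 0.89 in clusters and 6.13 ± 0.56 for single regions (SD, n = 3 each). The paired difference of 0.17 ± 0.35 was within its spread and higher in 2 of 3 comparisons (two-sided exact permutation p = 0.75). Regions not met have no fold there, and on average 79.0% of cluster regions but 69.4% of single regions were met. The fold comparison therefore covers unlike parts of the groups and cannot speak for all their regions.

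**Figure D3:**
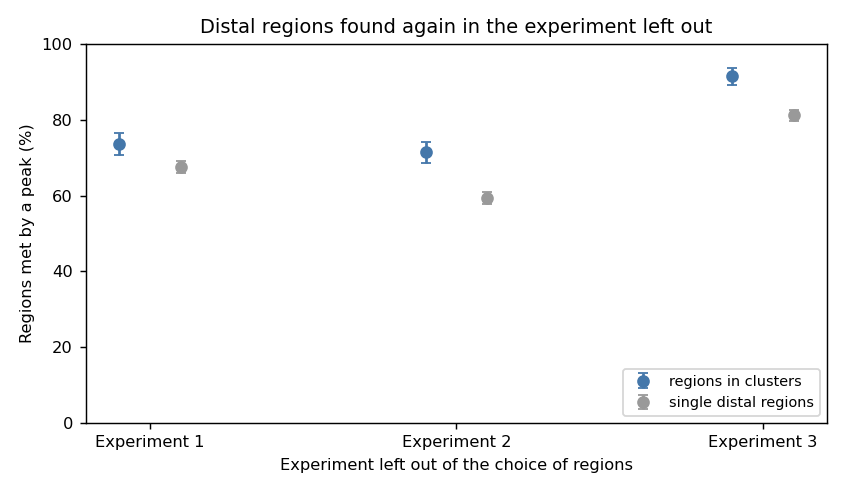
Percent of distal regions, chosen from 2 experiments, that were met by a peak of the experiment left out, for regions in clusters and for single distal regions; bars are 95% Wilson intervals, which cover counting error only. The cluster points lie above the single ones in all 3 comparisons, by 6.13, 12.2 and 10.4 percentage points.

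The clusters carried 548 gene symbols, since a region takes the gene with the nearest transcription start. A single symbol labelled 337 clusters, a pair of symbols 116, and 3 or more symbols 6. The symbols included 362 of 21887 protein-coding RefSeq genes (1.65%), against 15.0% of such genes with any distal reproducible region. Without experiments 1, 2 and 3 in turn, 196, 229 and 136 genes had a cluster. The leading symbol, which most regions of a cluster carried, was not a protein-coding gene in 147 clusters, and 67 of these overlapped one all the same. A cluster overlapped a protein-coding gene in 280 cases. All regions lay upstream of their starts in 165 clusters, all downstream in 190, and 104 had both. Of the 362 genes, 267 (73.8%) also had a reproducible region at their promoter, against 55.2% of the 2931 genes with distal regions but no cluster and 37.2% of all protein-coding genes. Genes with a cluster had a median length of 30.1 kb, against 37.0 kb with distal regions only and 17.2 kb over all genes.

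The share of distal regions in clusters ran from 11.8% on chromosome 3 (95% Wilson interval 8.69 to 15.7%) and 12.4% on chromosome 13 to 28.3% on chromosome 17 and 29.8% on chromosome 8 (25.8 to 34.0%). Chromosome X held 30 distal regions and 2 clusters.

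Several of the clusters with most regions lay at or beside transcription factors of NK and innate lymphoid cells. Of the 39 genes of that list, 12 (30.8%, 95% Wilson interval 18.6 to 46.4%) had a cluster region assigned, beside 1.65% of all protein-coding genes. Any distal region was assigned to 25 of the 39, beside 15.0% of all protein-coding genes. The 12 were Bcl11b, Eomes, Id2, Irf2, Irf8, Klf2, Lef1, Nfil3, Prdm1, Runx1, Runx3 and Tcf7. This list, like the others, was put together with earlier results of these data known, so its count is a description. Without experiment 3 the count was 7. Counting instead genes that overlap a cluster or flank it within 50 kb, a choice made after the data were seen, 3.31% of all genes and again 12 of 39 qualified, with Tbx21 and Ikzf3 in and the distant Id2 and Nfil3 out.

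The Irf8 cluster (chr8:120760215-120804854, 44.6 kb) held 12 regions, 7 of them in all 3 lists. Irf8 encodes an interferon regulatory factor used by NK cells and by myeloid and dendritic cells. The strongest or lead region of a cluster is the one with the highest mean rank of the authors' −log10 q-value over the lists. At Irf8 this was the one with the printed T-box motif, which had pileups of 95, 76 and 176 fragments and folds of 17.7, 31.5 and 32.9 in experiments 1, 2 and 3 (27.4 ± 8.41, SD, n = 3). By the deposited distance, it lay 34436 bp downstream of the transcript start that gave the label, which need not be the main start of Irf8. The region at 31562 bp had folds of 10.1, 12.1 and 19.1. The other 10 regions were far weaker, with mean folds from 3.38 to 7.65, and 5 of them lacked a peak in 1 list. In each experiment the same pair of sites was the strongest. Without experiment 3, which had the longest list, 7 regions were left.

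The second largest cluster, by number of regions, was assigned to the transcript Gm16225 and lay wholly between genes (chr4:135066774-135109155, 42.4 kb). Its 16 regions ended 11490 bp from Runx3, which encodes a Runt-domain factor that NK and cytotoxic T cells share. The strongest region had folds of 19.9, 21.1 and 35.0 (25.3 ± 8.38) and the next 16.4, 17.7 and 26.2 (20.1 ± 5.31; SD, n = 3 each). Another 3 regions assigned to Runx3 itself formed a cluster inside the gene, led by folds of 9.95, 12.4 and 6.24. Runx1, its relative, had 5 intronic regions over 21.2 kb, and 1 of them was in all 3 lists. That cluster was led by folds of 10.7, 15.8 and 15.5.

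Id2 encodes the inhibitor of E proteins that innate lymphoid cells depend on, and its clusters lay far upstream of it. One held 11 regions over 46.2 kb (chr12:25208915-25255120), starting 112823 bp from the gene, and the other held 3 regions from 68662 bp. In the larger cluster 3 regions stood above the rest in all experiments. The strongest had folds of 14.9, 11.6 and 11.7 (12.8 ± 1.89, SD, n = 3), the region nearest to Id2 had 12.6, 11.1 and 14.5, and the next one 11.9, 13.6 and 8.93. The other 8 had mean folds from 3.89 to 6.08, and the cluster kept 3 regions without experiment 2 and 5 without experiment 3. No other protein-coding gene lay between this cluster and Id2, and the next on the far side, Rnf144a, was 1051674 bp away.

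Tcf7 encodes TCF-1, and 8 intergenic regions over 35.7 kb lay between it and Vdac1, which encodes a channel of the outer mitochondrial membrane (chr11:52313940-52349688). The 3 regions on the Tcf7 side took that label and the 5 others took Vdac1. The strongest, labelled Tcf7, had folds of 15.9, 26.3 and 18.2 (20.1 ± 5.43), and its neighbour had 20.8, 13.6 and 9.63 (14.7), both above the 5 regions labelled Vdac1, whose means ran from 3.39 to 5.65. Inside Tcf7 lay another cluster of 3 intronic regions, labelled Gm26551 and led by folds of 6.83, 9.27 and 8.02. Lef1, a relative of TCF-1, had 3 intronic regions, all in 3 lists, led by folds of 10.9, 8.46 and 9.76. Bcl11b, a zinc-finger factor best known from T cells, had 4 regions upstream of it, led by a site with folds of 22.0, 33.2 and 14.5 (23.2 ± 9.42), while the others averaged 3.28 to 7.54. With peaks of −log10 q-value 2 or more Bcl11b and Runx3 had no cluster, and 10 genes of the list did.

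Eomes had a compact cluster of its own, 6 regions within 5.55 kb (chr9:118484327-118489880), between 5466 and 10728 bp downstream of the start, of which 1 was in an exon of the gene and 5 were intergenic. The regions were weak and seldom shared: 1 of 6 was in all 3 lists, with folds of 3.54, 4.13 and 3.31. The highest mean was 5.15, from folds of 5.49 and 4.80 in experiments 2 and 3 with no peak in experiment 1. Without experiment 1 or 2 the cluster had 3 regions, and without experiment 3 there was no cluster. The region with the printed T-box motif had folds of 5.20 and 4.00 in experiments 1 and 3 and no peak in experiment 2. Tbx21, which encodes T-bet, had no cluster by label, but 7 regions labelled Mir7235 and Gm11572 (chr11:97123634-97142706, 19.1 kb) began 8303 bp from it and reached into Tbkbp1. There, 6 of 7 regions were in all 3 lists, and the strongest had folds of 6.94, 7.59 and 8.92 (7.81 ± 1.01, SD, n = 3).

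Smaller clusters stood at Nfil3, Klf2, Irf2 and Prdm1. Nfil3, a leucine-zipper factor needed for NK cells to arise, had 4 regions with distances from -76102 to -84599 bp, upstream of its start. The 1 region in 3 lists led by rank, with folds of 6.32, 5.23 and 8.67. Another of its regions had higher folds, 10.8 and 10.5 in experiments 1 and 3, and no peak in experiment 2. Klf2, a regulator of lymphocyte trafficking, had 3 regions in all 3 lists inside its neighbour Eps15l1. Irf2 had 3 regions, of which the lead by rank had folds of 5.20, 6.80 and 5.06 and another had 6.94 and 5.47 in experiments 2 and 3 with no peak in experiment 1. The cluster at Prdm1, which encodes the repressor Blimp-1, shared its label with Mir1929.

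**Figure D4:**
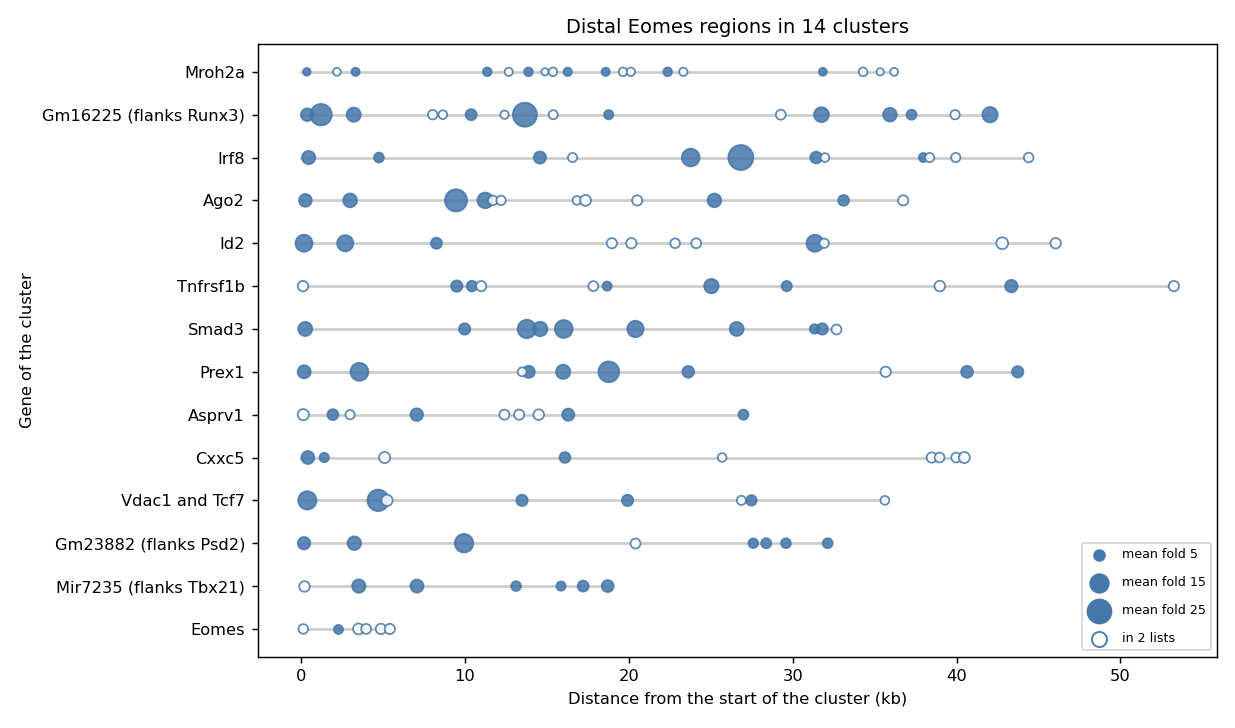
Distal regions in the 12 clusters with most regions and in the clusters beside Tbx21 and at Eomes, by distance from the start of the cluster in kb; circle area follows the mean fold over the lists with a peak, filled circles are in all 3 lists and open ones in 2. Irf8, Gm16225, Ago2 and Tcf7 show 1 or a few large circles among small ones, while the 18 regions at Mroh2a and the 6 at Eomes are all small.

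Of 29 genes listed as activation-linked transcription factors, 9 had a cluster (31.0%, 95% Wilson interval 17.3 to 49.2%), beside 1.65% of all genes. Without experiment 1 or without experiment 3, 5 did. The 9 were Egr1, Egr3, Fosb, Junb, Nfatc1, Nfkb1, Nfkb2, Nfkbia and Nr4a1, of which Nfkbia encodes an inhibitor of NF-κB rather than a transcription factor. Nfatc1, a calcium-controlled factor, had 14 regions in a pair of intronic clusters, and the stronger of these was led by folds of 14.7, 14.7 and 14.2 (14.5 ± 0.28, SD, n = 3). Egr1, an immediate-early factor, had 3 regions within 2.49 kb, with folds of 15.3, 17.4 and 13.6 at the strongest. Junb, an AP-1 subunit, had 5 regions within 4.58 kb that reached towards Hook2, led by folds of 10.4, 7.48 and 8.70. Nfkb1, which encodes an NF-κB subunit, had 4 regions in all 3 lists, led by folds of 11.6, 15.4 and 11.8. The lead regions of Nfkb2, Nfkbia and Nr4a1 averaged 5.92, 6.38 and 5.80.

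The lists of effector genes held 1 gene with a cluster each, too few to set them apart from all genes. Of 24 genes of the cytotoxic machinery, Gzma alone had one (4.17%), and of 20 cytokines and chemokines Ifng alone (5%), shares whose intervals (0.74 to 20.2% and 0.89 to 23.6%) reach below the 1.65% of all genes. Without experiment 1 or without experiment 3, neither had one. Gzma, which encodes the protease granzyme A, had 3 regions in 7.42 kb, led by folds of 9.37, 13.4 and 19.2 (13.97 ± 4.94). They lay from 6298 to 13440 bp downstream of its start and were classed as intronic, which need not mean introns of Gzma. Ifng, which encodes interferon-γ, had 3 regions from 25723 to 29352 bp downstream of its start. The strongest had folds of 9.68, 7.71 and 13.5 and the middle one 13.4, 4.81 and 10.8, while the region nearest the gene had 7.50 and 5.46 with no peak in experiment 2. Prf1, which encodes the pore protein perforin, had no cluster by label, but 7 regions labelled Adamts14 and Rpl27a-ps1 flanked it on both sides. The 4 on the Adamts14 side began 16329 bp away and were led by folds of 15.4, 13.3 and 11.6. The 3 on the other side lay 23113 bp away and were led by folds of 5.27 and 6.00, with no peak in experiment 2.

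Among 33 cytokine receptor and JAK-STAT genes, 5 had a cluster region (15.2%, 95% Wilson interval 6.65 to 30.9%), beside 1.65% of all genes. A cluster was overlapped or flanked within 50 kb by 10 (30.3%), beside 3.31% of all genes. Il2rb encodes the β chain through which IL-15, the cytokine in the culture, signals. Its start lies 15024 bp from a region with folds of 6.30, 6.21 and 15.0. The next region of that cluster, labelled C1qtnf6, was the strongest, with folds of 22.6, 25.8 and 29.9 (26.1 ± 3.67). A further 4 regions in Tmprss6, all in 3 lists, lay 15787 bp from Il2rb on its other side, and the strongest had folds of 22.3, 23.8 and 24.3 (23.5 ± 1.06, SD, n = 3). Both were high in every experiment. Il21r, the IL-21 receptor gene, had 8 regions in a pair of clusters, led by folds of 10.2, 9.71 and 16.7, and its neighbour Il4ra shared one of these clusters. Socs1 and Socs3, feedback inhibitors of cytokine signalling, had clusters led by folds of 11.7, 15.4 and 14.9 (Socs1) and 4.47, 6.11 and 6.41 (Socs3). Cish, another such inhibitor, Jak1, Ifnar1, Ifngr2 and Il10rb were reached only as flanking genes.

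TGF-β signalling, which restrains NK cells, had clusters at 3 of 18 genes (16.7%, 95% Wilson interval 5.84 to 39.2%), beside 1.65% of all genes. Smad3, a signal-carrying Smad, had 10 intronic regions over 32.9 kb, 9 of them in all 3 lists, and its 3 highest mean folds were 14.8, 14.02 and 11.8. The strongest had folds of 10.3, 13.8 and 20.4 (14.8 ± 5.11, SD, n = 3). The inhibitory Smad7 had 6 regions in a pair of clusters, led by folds of 13.5, 10.8 and 20.4, and Ski, a corepressor of Smads, had 4 regions led by folds of 5.82, 8.71 and 6.88. Tgfbr1 lay 37260 bp from a cluster labelled Col15a1.

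Of 36 NK receptors and adaptors, 3 had a cluster (8.33%, 95% Wilson interval 2.87 to 21.8%), beside 1.65% of all genes. Any distal region was assigned to 12 of the 36, beside 15.0% of all genes. Klrb1c, which encodes the NK1.1 antigen of this mouse strain, had 4 upstream regions in 7.28 kb, all in 3 lists. The strongest had folds of 14.6, 9.46 and 11.4 (11.8 ± 2.58), and the one with the printed sequence 7.75, 7.31 and 9.47. The inhibitory receptor gene Pdcd1, which encodes PD-1, had 3 regions shared with Neu4, and a pair of them was strong, with folds of 27.0, 16.1 and 26.2 (23.1 ± 6.05) and of 18.2, 21.2 and 15.6 (18.3). Tigit, another inhibitory receptor gene, had 4 regions upstream of it, led by folds of 10.1, 5.96 and 15.9.

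Of 39 genes of receptor-proximal signalling and its brakes, 6 had a cluster (15.4%, 95% Wilson interval 7.25 to 29.7%), beside 1.65% of all genes. Without experiment 1 or without experiment 3, 2 did. Dusp2, a phosphatase of MAP kinases, had a lead region at 21090 bp upstream with folds of 23.6, 23.9 and 23.6 (23.7 ± 0.16, SD, n = 3), nearly equal in the 3 experiments. Rgs3, a regulator of G-protein signalling, had 3 regions shared with the transcript Gm11209, led by folds of 31.8, 13.4 and 27.8 (24.3 ± 9.68), with experiment 2 the lowest. With an overlap of 50 bp needed to merge peaks, with distances over 5000 bp or with clusters broken at promoter regions, it was no cluster, and with the overlap 5 genes of the list had one. Inpp5d, which encodes the phosphatase SHIP1, had 6 intronic regions, 5 in all 3 lists, led by folds of 8.88, 6.88 and 11.2. The kinase genes Syk and Fyn had 7 and 4 regions, and Dusp5 had 3 regions with none in all 3 lists. Of 26 migration and adhesion genes, 1 had a cluster (3.85%, 95% Wilson interval 0.68 to 18.9%), Selplg, which encodes a selectin ligand. Of 27 survival and cell-cycle genes there were 2 (7.41%, 2.06 to 23.4%), the cyclin genes Ccnd1 and Ccnd3, again beside 1.65% of all genes. These counts were 1 and 1 without experiment 1, 0 and 1 without experiment 2, and 0 and 1 without experiment 3.

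Of 18 T cell genes 2 had a cluster (11.1%, 95% Wilson interval 3.10 to 32.8%), Cd247, which encodes the CD3ζ chain that NK cells also use, and Cd5, and 1 did without experiment 1 or without experiment 3. None of 15 B cell genes, 17 myeloid genes or 20 liver and neuronal genes had one, with upper 95% Wilson limits of 20.4%, 18.4% and 16.1%, so these counts do not set them apart from the 1.65% of all genes. Of 30 cytosolic ribosomal protein genes, Rplp1 had 7 regions in a pair of clusters that lay 204980 bp or more from it, towards Tle3. Over all lists 46 of 390 genes had a cluster region, and 29 without experiment 1, 33 without experiment 2 and 26 without experiment 3. By list, 12 of 15 had at least 1 gene with a cluster. In lists of this size 1 such gene already puts the share above 1.65%, so the number of lists is no further support.

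**Figure D5:**
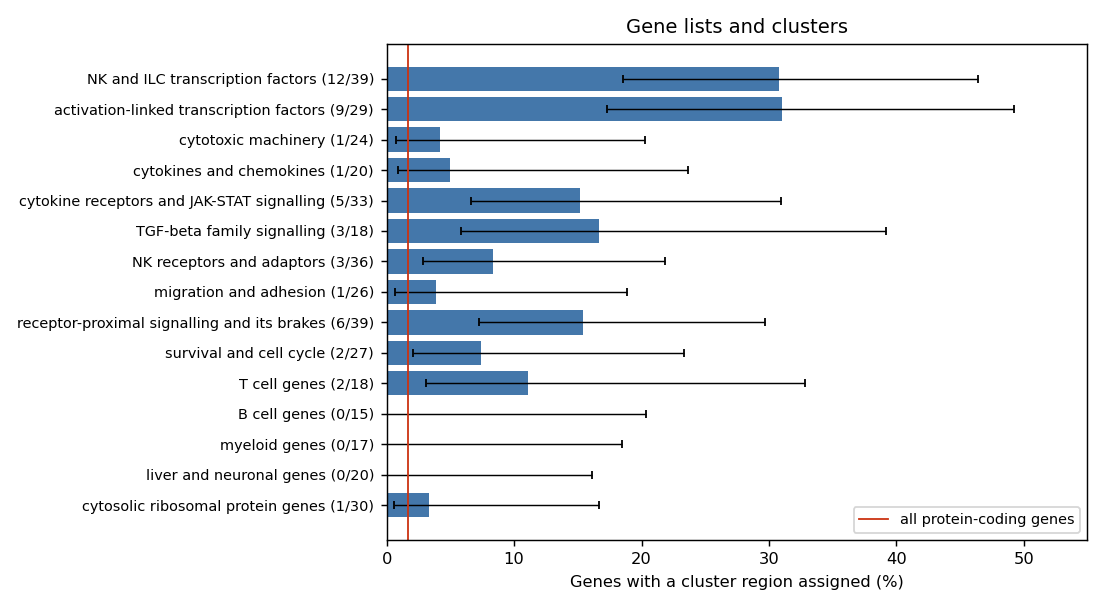
Percent of the genes of each list with a cluster region assigned, with 95% Wilson intervals (counts in brackets); the vertical line is the 1.65% of all protein-coding genes. The transcription factor lists stand at 30.8% and 31.0%, and the B cell, myeloid and liver and neuronal lists at 0.

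Several of the largest clusters lay at genes outside the lists. Ago2, which encodes the slicing Argonaute of small-RNA silencing, had 12 intronic regions over 36.8 kb, 6 of them in all 3 lists and 4 left without experiment 3, and its strongest region had folds of 20.8, 17.4 and 26.4 (21.6 ± 4.55). Tnfrsf1b, which encodes a receptor for TNF, had the longest cluster, 11 regions over 53.4 kb, and its strongest had folds of 12.6, 5.27 and 9.40 (9.11 ± 3.70). It had 6 regions without experiment 1 and 5 without experiment 3. Prex1, an activator of Rac GTPases, had 10 intronic regions, 8 in all 3 lists, over 43.9 kb, led by folds of 15.2, 16.5 and 24.9 (18.9 ± 5.27), and another cluster of 5 led by 10.1, 11.4 and 17.2. The larger had 6 regions without experiment 2 or without experiment 3. The clusters of 9 regions at Asprv1 and Cxxc5 were led by mean folds of 7.04 and 7.30. The 8 regions at Gm23882, between Cxxc5 and Psd2, were led by folds of 17.1, 16.2 and 11.8, and 7 of them were in all 3 lists.

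Among 32 protein-coding genes with 2 or more clusters, Zfp36l2 and Gse1 had 3 each. Gse1 had 9 regions in its clusters, whose lead regions had mean folds of 8.73, 5.55 and 4.88. The clusters led by 5.55 and 4.88 each included a region in 2 lists with a weak peak in experiment 1. These peaks had −log10 q-values of 1.94 and 1.93, under the alternative limit of 2. Zfp36l2, which encodes an RNA-binding protein of mRNA decay, had 13 regions in clusters, 11 of them in all 3 lists. Their lead folds were 11.6, 14.3 and 12.3 at 67921 bp, 8.79, 10.04 and 14.1 at 36217 bp, and 12.0, 17.3 and 8.19 at 6550 bp from the start. Sik1, a salt-inducible kinase, had 13 regions in a pair of clusters, led by folds of 6.95, 12.0 and 9.59 and of 5.01, 8.92 and 6.86.

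The cluster with most regions had weak peaks over a high background. Mroh2a had 18 regions in 36.3 kb (chr1:88230094-88266413), whose mean folds ran from 2.30 to 3.40, and 6 without experiment 3. The strongest had folds of 3.15, 3.65 and 3.39. Another 11 reproducible regions within 3000 bp of a start lay inside its span, and its background was 4.58 times the lowest of the list, against a median of 1.38 over all clusters. Background reached 3 times the lowest in 10 clusters, which included those at Vmn1r-ps2 (9.40), a vomeronasal receptor pseudogene, and Trpm8 (5.11), a cold-sensing channel gene. These 2 were among the 5 densest clusters of 4 or more regions, with 6 regions in 5.28 kb and 4 in 3.65 kb, and lead folds of 2.94 ± 0.48 and 3.12 ± 0.69. The other 3 of the densest, at Zfp395 (4 regions in 2.70 kb), 1810008B01Rik (4 in 2.82 kb) and Mylk2 (4 in 3.33 kb), had backgrounds of 1.17 to 1.34 and lead means of 5.23, 7.36 and 9.34. What raised the background at those 10 was not tested. Without peaks of such background, 441 clusters with 1706 regions were left.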

How the data were processed

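The 3 experiments gave 1 IP and 1 input library each, with 1 deposited peak list per experiment whose description pairs it with that experiment's input. Per the submitters' processing notes, mm10, Novoalign (an aligner) and ChIPseeker (an annotator) were used. The sources used here name no peak caller or settings and no depth per library. Each deposited pileup is a whole-number signal at the summit, the fold enrichment is the authors' ratio of IP over background, and the −log10 q-value is the authors' score, at least 1.30 in these lists. Folds were used to describe and rank regions within lists, and mean ± SD over experiments describes a region.

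Intervals were merged in Python 3.11.15 with pandas 2.3.3, and bedtools 2.31.1 gave the same 20056 reproducible regions. Background was recovered as (pileup + 1) / fold − 1 and set against the lowest of its list. Coordinates are as deposited, on mm10. Rows on other sequences were left out of the clusters. Genes were matched to 21887 protein-coding RefSeq genes (GRCm38.p6), and 390 of 392 listed genes were found. Tests were exact sign-flip permutations over 3 differences (SciPy 1.17.1). On simulated peaks the script found all planted clusters.

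Named clusters were the 12 with most regions, the 5 longest, the 5 densest of 4 or more regions, up to 6 genes per list and up to 5 genes with several clusters, and other named flanking genes were chosen after their values were seen. Members and lists were chosen with earlier results of these data known. Alternatives covered overlap, score, number of lists, distance, gap, gene row, promoter breaks, cluster size and each experiment left out, and 3 were added after the data were seen. Intervals cover counting error only.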

Additional observations from a re-analysis of the deposited data

Results flagged for a closer look

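Outside chromosomes 1 to 19 and X, 59 distal reproducible regions met the cluster rule, a signal in rows that the clusters described above do not use. They formed 4 clusters: 42 regions lay in 1 cluster on an unplaced contig, 13 in 2 clusters on chromosome Y and 4 in 1 cluster on a contig unplaced within chromosome 4. The 10 sequences concerned held 280 rows and 70 reproducible regions. No separate input peak list was analysed here, so these regions were not set against input alone.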

How the results depend on the processing

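No paired analysis was possible because each list already sets IP against its own input, and no separate values of IP and input were used here, so no fit with the replicate number as a block could be made. The comparison of clusters with single regions was itself paired by the experiment left out. No setting turned the sign of a mean difference, but with a gap of 5000 bp and with 4 or more regions the difference in median fold was positive in 1 of 3 comparisons. A −log10 q-value of 5 or more left 109 clusters, 377 regions (10.3% of distal regions), a median span of 10.5 kb, 83 protein-coding genes and 19 listed genes, and one of 2 or more moved the share to 20.4%. Regions in 3 of 3 lists gave 131 clusters, 479 regions (13.0%), 115 genes and 22 listed genes. Distances over 10000 bp gave 271 clusters, 1048 regions (19.6%) and 206 genes, and over 5000 bp a share of 20.4%. A gap of 5000 bp gave 266 clusters, 963 regions (11.8%), 5.91 kb and 182 genes, and one of 25000 bp gave 2809 regions (34.4%), 24.6 kb, 623 genes and 70 listed genes. Clusters of 4 or more numbered 206, with 1038 regions (12.7%), 15.7 kb, 182 genes and 27 listed genes. Leaving out 1 experiment gave 161 to 276 clusters, 596 to 1019 regions, 13.6 to 17.4% of distal regions, spans of 10.3 to 11.2 kb, 136 to 229 genes and 26 to 33 listed genes. Stricter settings keep fewer regions by construction. Overlap of 50 bp, the row with the largest fold and breaks at promoter regions left the totals of clusters, regions and genes within 1.5 times. Single clusters moved more: overlap of 50 bp left none at Gm11209 and Rgs3 and 4 regions at Cxxc5, and breaks at promoters left 11 regions at Mroh2a, 3 at Fosb and none at Gm11209. Single clusters were followed for the 65 named by number of regions, span, density or list. Other clusters named in the text, such as those at Zfp36l2 and Gse1 and the smaller one at Prex1, were not followed. A −log10 q-value of 2 left 57 of these 65, without those at Bcl11b, Runx3, Dusp2, Nfkb2, Ccnd1 and Zfp395 and the smaller ones at Id2 and Smad7. Distances over 5000 bp left 59, without Junb, Egr1, Mylk2, Selplg, Gm11209 and Nfkb2. Of the 65, 27 remained clusters at a −log10 q-value of 5, 31 in 3 of 3 lists, and 43, 48 and 34 without experiments 1, 2 and 3. The difference in regions met by the experiment left out ranged from 2.71 to 12.8 points and that in median fold from 0.00724 to 0.35. Counting genes that overlap or flank a cluster, added after the data were seen, gave 62 listed genes. Depth and the peak threshold limit which weak regions could join a cluster.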
